A study of Mus musculus with 140 samples.

Results

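The genes examined are targets of p53 (the product of Trp53), the transcription factor that DNA damage and other stresses switch on: Cdkn1a, Mdm2, Plk2, Trp53inp1, Gadd45a, Zmat3, Btg2, Perp, Ccng1 and Bax. Every probe set of the A and B arrays whose annotation names exactly 1 of these genes was taken, which gave 17 probe sets of 9 genes, among 45265 probe sets and 14749 measured genes on both arrays. No probe set's entry in the annotation used names Bax alone, and Bax was not analysed here. All 17 probe sets passed the filter on low signals, as did 32992 probe sets in all. Where a gene had several, the one that ranked highest by signal, averaged over the arrays, stood for it, and the others were followed beside it.

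The cells were mouse embryonic stem cells of the male CCE line (strain 129/Sv), kept in LIF (leukaemia inhibitory factor, which holds them undifferentiated) at 1000 units/ml. In 7 knockdown courses they carried a short hairpin RNA, with GFP as the marker of transduced cells. Its target was Nanog, Oct4, Sox2, Esrrb, Tbx3 or Tcl1, or the Mm343880 transcript, named here as in the labels. The reference cells carried the same kind of vector without a hairpin (empty vector), and a further course received 5 µM retinoic acid, an inducer of differentiation, without LIF. In the empty vector and knockdown courses GFP+ cells were sorted daily, and day 0 was 48 hours after the vector was given. The retinoic acid cells differed from these in transduction, LIF and drug at once, and no time after transduction is given for them. Courses lasted to day 7, with 8 samples, except those of Mm343880 and retinoic acid, which ended on day 6 with 7 samples. This made 70 RNA samples, each on an A and a B array. There was 1 sample per course and day, and the labels name no repeat of a transduction, so course and batch cannot be told apart and the tests measure the scatter of days around a smooth curve. The population of a course is bulk RNA, in which more cells expressing a gene and more RNA per cell cannot be told apart.

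In unstressed cells the p53 protein is kept low by Mdm2, a ubiquitin ligase that is itself a p53 target, so the pathway limits itself. Its targets act at several levels: Cdkn1a (p21) inhibits cyclin-dependent kinases, Ccng1 (cyclin G1) recruits a phosphatase to Mdm2, Btg2 is an antiproliferative factor, Gadd45a acts in DNA repair and stress kinase signalling, Plk2 is a polo-like kinase, Trp53inp1 is a nuclear stress protein that acts back on p53, Zmat3 is an RNA-binding zinc finger protein, and Perp is a membrane protein of apoptosis and of cell junctions. Several of these genes also respond to signals that do not pass through p53. The measured values are RNA signals, which say nothing directly of p53 protein.

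RefSeq (build GRCm38.p6) held promoter windows of 300 bases, from 250 before to 50 after the start, for 6 of the 9 measured genes. The windows were searched on both strands for the p53 half-site consensus of 10 bases, for 2 half-sites up to 13 bases apart with at most 1 mismatch in their 20 bases, and for TGACGTCA, the cyclic AMP response element. Such a pair of half-sites was found for 206 of 32851 promoters (0.6%), a half-site without mismatch for 8.4% and TGACGTCA for 1.8%. The pair was present in the upstream one of 2 windows of Cdkn1a and in that of Ccng1. A half-site without mismatch was also present in the windows of Mdm2 and Gadd45a, and TGACGTCA in those of Plk2 and Btg2. The 3 windows below belong to the genes that stood above the empty vector in the most knockdown courses, and the capitals mark half-sites of the p53 consensus in the first and last and TGACGTCA in the other. They lie at chr17:29090729-29091028 (+), chr13:110394794-110395093 (+) and chr11:40755237-40755536 (−).
Cdkn1a: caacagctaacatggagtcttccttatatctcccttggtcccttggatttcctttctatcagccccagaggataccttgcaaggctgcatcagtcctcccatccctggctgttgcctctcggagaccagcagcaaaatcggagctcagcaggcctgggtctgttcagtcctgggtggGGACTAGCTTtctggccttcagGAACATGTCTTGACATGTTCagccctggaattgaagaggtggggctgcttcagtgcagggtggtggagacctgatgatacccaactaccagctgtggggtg
Plk2: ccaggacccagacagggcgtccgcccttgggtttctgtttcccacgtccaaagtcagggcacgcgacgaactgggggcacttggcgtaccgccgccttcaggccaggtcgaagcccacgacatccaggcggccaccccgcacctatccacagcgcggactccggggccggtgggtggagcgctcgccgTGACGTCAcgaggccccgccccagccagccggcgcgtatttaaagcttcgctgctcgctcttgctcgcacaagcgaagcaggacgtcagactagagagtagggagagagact
Ccng1: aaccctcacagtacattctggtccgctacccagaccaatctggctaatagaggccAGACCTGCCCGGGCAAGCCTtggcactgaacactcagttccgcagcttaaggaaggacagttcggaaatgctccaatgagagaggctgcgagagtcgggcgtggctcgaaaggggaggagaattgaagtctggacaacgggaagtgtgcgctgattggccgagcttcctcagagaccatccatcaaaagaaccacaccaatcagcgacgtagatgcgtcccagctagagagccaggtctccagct
The Cdkn1a window holds 2 half-sites without mismatch, 12 bases apart, of which the first begins 73 bases before the start, and the other is followed directly by a half-site with 1 mismatch. In Ccng1 the adjoining half-sites, with 1 mismatch in their 20 bases, begin 195 bases before the start. A match describes the letters of the window and not a bound site, and a window without a match says only that these letters are not in it.

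Each hairpin target that was measured was low in its own course. The RNA of Nanog, Pou5f1 (Oct4), Sox2, Esrrb, Tbx3 and Tcl1 was below the empty vector in its own course over days 0 and 1, from −3.16 for Pou5f1 to −1.35 for Esrrb on the log2 scale, and over days 4 to 6, from −3.09 for Tbx3 to −1.42 for Esrrb. The target of the Mm343880 course was not analysed here. The empty vector cells carried the markers of embryonic stem cells on every day, with Pou5f1 between 14626 and 17590 and Nanog between 6577 and 8314.

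In the empty vector course 3 of the 9 p53 targets fell and 0 rose. All 9 had a lower fitted level over days 4 to 6 (late) than over days 0 and 1 (early), and those that passed the test (limma, Benjamini-Hochberg adjusted p below 0.05) were Plk2, Trp53inp1 and Ccng1. The median change of the 9 genes was −0.65 on the log2 scale, against −0.03 over all probe sets tested. The genes were chosen with earlier results of these data known, so this contrast and the like ones below are descriptions. Counted by probe set, 5 of 17 fell and 0 rose, where 0.185% of all probe sets were called lower and 0.285% higher in this course. The empty vector serves as the reference for the knockdown courses, so its own movement enters every difference from it.

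Plk2 fell steadily. Its signal on days 0 to 7 of the empty vector course was 2449, 2310, 1529, 921, 833, 649, 404 and 402. The first 2 samples lay close together, and each sample from day 2 to day 7 was below the one before it. The fitted change was −1.85 ± 0.29 (SE, adjusted p = 0.00044), a 3.60-fold fall on the scale of log2(signal + 63.1). The second Plk2 probe set, on the B array, was dim, between 61.6 and 247.9 in all 70 samples, and changed by 0.35 without passing.

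Trp53inp1 dropped most between days 0 and 1. Its empty vector signal was 2983 on day 0 and 1141 on day 1, and then 1046, 570, 677, 608, 431 and 745 on days 2 to 7. Day 0 thus stood apart from the 7 later samples, which spanned 431 to 1141. The fitted change was −1.68 ± 0.33 (SE, adjusted p = 0.006), and the second probe set of the gene changed by −1.13 without passing.

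Ccng1 gave a different picture with each of its probe sets. The brightest fell gradually from 4897 on day 0 to 4732, 4514, 3779, 3019, 3376, 2702 and 2811 on days 1 to 7, a change of −0.65 ± 0.14 (SE, adjusted p = 0.015). The probe set 1420827_a_at went from 2374 on day 0 to 586 on day 1 and stayed between 405 and 631 afterwards, a change of −1.35 (adjusted p = 0.041). The probe set 1450017_at went from 2356 to 789 and then lay between 352 and 524, a change of −1.60 (adjusted p = 0.022). The 2 dimmer probe sets shared their course over the 70 samples (r = 0.85) and followed Trp53inp1 (r = 0.82 for each) as closely, whereas the brightest followed 1420827_a_at less closely (r = 0.66). What each probe set measures along the Ccng1 transcript was not analysed here.

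The other 6 genes did not pass in the empty vector course. Mdm2 went from 2619 on day 0 to 1413 on day 1 and lay between 620 and 1310 from day 2 on, with a fitted change of −1.01 (adjusted p = 0.05001), and its second A array probe set changed by −1.41. Gadd45a changed by −0.91, from 743 on day 0 to 183 on day 6, Btg2 by −0.63, Perp by −0.53, Zmat3 by −0.32 and Cdkn1a by −0.21. The second Cdkn1a probe set went the other way, by 0.54, with a day 0 signal of 545 below all later ones (948 to 1457).

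The calls of these falls depended on the day 0 sample of the empty vector. Without it no target gene passed, while the fitted falls of Plk2 and Ccng1 were no smaller: the changes were −2.20 for Plk2 (adjusted p = 0.16), −1.14 for Trp53inp1 and −0.72 for Ccng1, and over all probe sets the calls went from 61 to 1 lower and from 94 to 6 higher. With days 1 and 2 as the early window, a choice made after seeing the data, Plk2 alone passed, with a change of −1.46 (adjusted p = 0.015). The day 0 A array also had the highest median signal of its course, 330.9 against 244.5 on the lowest. The ratio of 3′ to 5′ signals of actin, a measure of RNA quality, stayed between 0.04 and 0.17 on the log2 scale in this course. Over the 70 samples the log2 signal of the 1420827_a_at and 1450017_at probe sets and of Trp53inp1 ran with the array median (r = 0.58, 0.59 and 0.59), that of Plk2 less (r = 0.26) and that of Cdkn1a hardly (r = 0.07). With all arrays shifted to the same median the Plk2 and Trp53inp1 falls still passed, at −1.79 and −1.63, as did the Ccng1 probe set 1450017_at, at −1.54 (adjusted p = 0.025). The brightest Ccng1 probe set, at −0.60, and 1420827_a_at, at −1.30, did not.

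**Figure D1:**
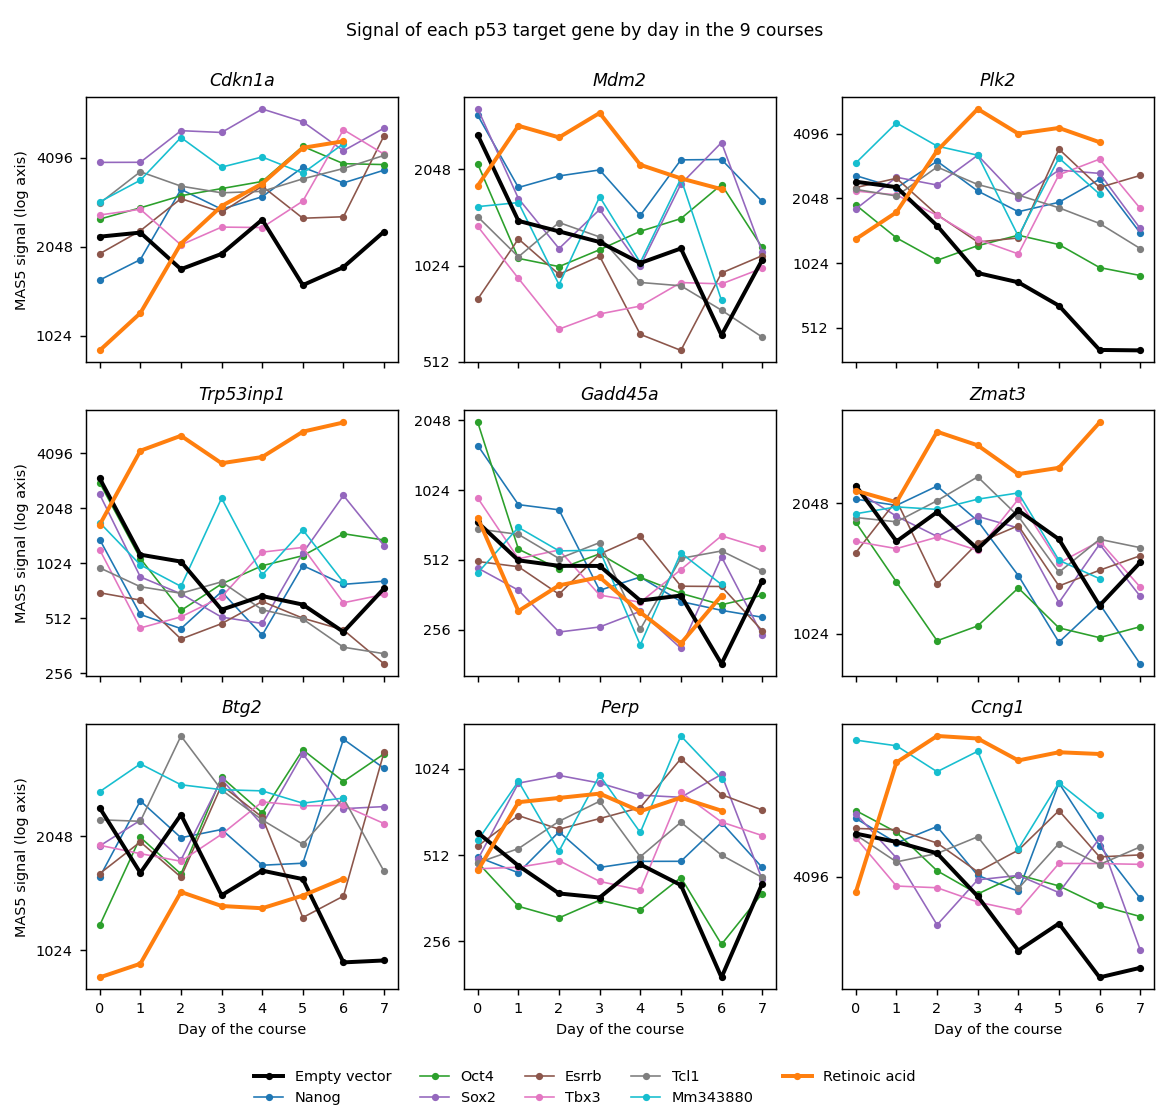
MAS5 signal (log axis) of the probe set that stands for each of the 9 genes against the day of the course, 1 point per sample, with the empty vector in black, retinoic acid in orange and the 7 knockdown courses in thin lines. The empty vector line of Plk2 falls from 2449 to 402 while every knockdown line stays above it from day 4 to day 6, and Cdkn1a in retinoic acid climbs from 916 to 4653.

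The step between days 0 and 1 was compared across the courses. A probe set was counted as stepping down where its value on the log2(signal + pseudocount) scale was at least 2-fold lower on day 1 than on day 0, with 1 array on each side and therefore no test. In the empty vector course 3 of the 17 target probe sets did so, 4 in the Nanog course, 4 in Oct4, 2 in Sox2, 1 in Tbx3, 1 in retinoic acid and 0 in Esrrb, Tcl1 and Mm343880. By the same measure 3 stepped up in retinoic acid, 1 each in the empty vector, Nanog and Oct4, and 0 in the other courses. The share of all probe sets that stepped up was not counted, so these counts have nothing to be set against. The share of all probe sets that stepped down was 11.2% in the empty vector, 7.87% in Nanog, 8.7% in Oct4 and 11.3% in Sox2. It was 5.15% in Tbx3, 5.13% in retinoic acid, 3.93% in Esrrb, 5.46% in Tcl1 and 5.36% in Mm343880. The probe set counts in Sox2, Tbx3 and retinoic acid lay near the share over all probe sets. Counted by gene, 1 of 9 stepped down in the empty vector, which also lay near its share. Trp53inp1 went from 1380 to 536 in the Nanog course, from 2823 to 1086 in Oct4, from 2437 to 862 in Sox2 and from 1213 to 453 in Tbx3. These steps were −1.27, −1.33, −1.43 and −1.31 on the log2 scale, beside −1.34 in the empty vector. In the Esrrb course Trp53inp1 was low from the start (706 on day 0 and 643 on day 1). In retinoic acid it went up, from 1665 to 4232.

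The step was not one of all targets. Plk2 and Cdkn1a, by their standing probe sets, moved by at most 0.61 between days 0 and 1 in any course. Gadd45a dropped from 2001 to 570 in the Oct4 course, from 1592 to 886 in Nanog and from 777 to 308 in retinoic acid, and from 743 to 510 in the empty vector. The 1421679_a_at probe set of Cdkn1a went up at the same time, from 545 to 1196 in the empty vector, from 414 to 930 in Nanog and from 540 to 1653 in Oct4.

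**Figure D2:**
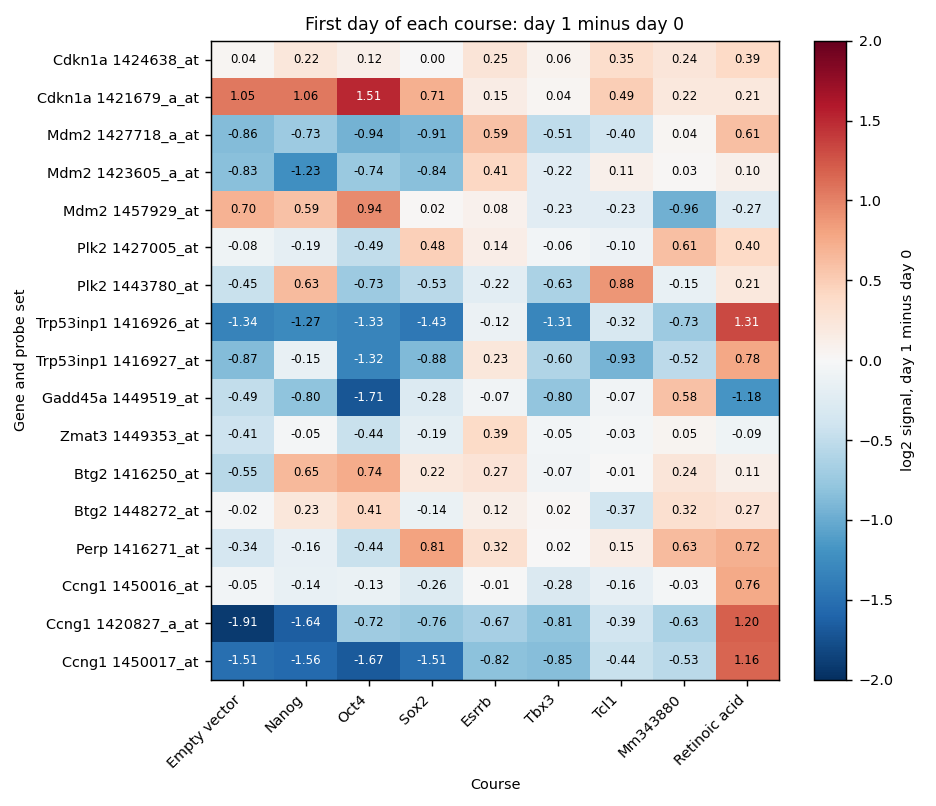
Difference in log2 signal between day 1 and day 0 for each of the 17 target probe sets (rows) in each of the 9 courses (columns), 1 array per day, blue for lower and red for higher on day 1, with the value printed in each cell. Trp53inp1 1416926_at lies between −1.43 and −1.27 in the empty vector, Nanog, Oct4, Sox2 and Tbx3 courses and at 1.31 in retinoic acid.

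Within the knockdown courses few targets rose. Counted by gene, 3 of 63 combinations of gene and course passed upward and 3 downward. In the Nanog course 1 gene rose and 2 fell, against 4.2% of all probe sets called higher and 2.98% lower. In the Oct4 course 2 rose and 1 fell, against 2.67% and 2.75%. In the other 5 courses no standing probe set passed in either direction, where the share of all probe sets called was 4.94% in Sox2, 4.26% in Esrrb, 2.65% in Tbx3, 1.38% in Tcl1 and 7.07% in Mm343880. Among the other probe sets, 1421679_a_at of Cdkn1a rose in Sox2 by 0.75 (adjusted p = 0.0087) and 1448272_at of Btg2 fell in Tcl1 by 0.78 (adjusted p = 0.021).

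Cdkn1a rose within 2 knockdown courses. In the Nanog course its signal was 1582, 1854, 3202, 2743, 3024, 3802, 3366 and 3717 on days 0 to 7, so that every sample from day 2 on lay above both early samples. The change was 0.89 ± 0.17 (SE, adjusted p = 0.00034), and the second probe set rose by 1.20. In the Oct4 course it went from 2541 and 2773 on days 0 and 1 to 3404, 4473 and 3909 on days 4 to 6, a change of 0.55 ± 0.17 (SE, adjusted p = 0.045). The Oct4 call lies near the threshold and was lost under 13 of the 29 alternatives, among them the day 5 samples left out (0.44) and arrays shifted to the same median (0.52). Without the day 0 samples the Nanog change was 1.04 and that of Oct4 0.46, and neither passed. The changes in the other 5 courses ran from 0.11 in Tcl1 to 0.37 in Sox2 and Esrrb and did not pass.

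Btg2 rose in the Oct4 course, from 1193 and 2034 on days 0 and 1 to 2358, 3458 and 2853 on days 4 to 6. The change was 0.99 ± 0.25 (SE, adjusted p = 0.0094), and it was 0.63 without the day 0 samples and 0.85 without the day 5 samples, neither of which passed. Its second probe set changed by 0.50 there without passing. Gadd45a fell, from 1592 on day 0 to 311 on day 6 in the Nanog course (−1.68 ± 0.31, SE, adjusted p = 0.00022) and from 2001 to 328 in the Oct4 course (−1.41 ± 0.31, SE, adjusted p = 0.0027). In Oct4 most of the fall came between days 0 and 1, a step of −1.71 on the log2 scale. Without the day 0 samples the change was −0.43 and did not pass. In Nanog it was −1.56 without them and did not pass either. Zmat3 fell in the Nanog course, from 2091 and 2024 on days 0 and 1 to 1394, 978 and 1199 on days 4 to 6 (−0.82 ± 0.17, SE, adjusted p = 0.0012). Without the day 0 samples the Zmat3 change was −0.67 and did not pass.

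**Figure D3:**
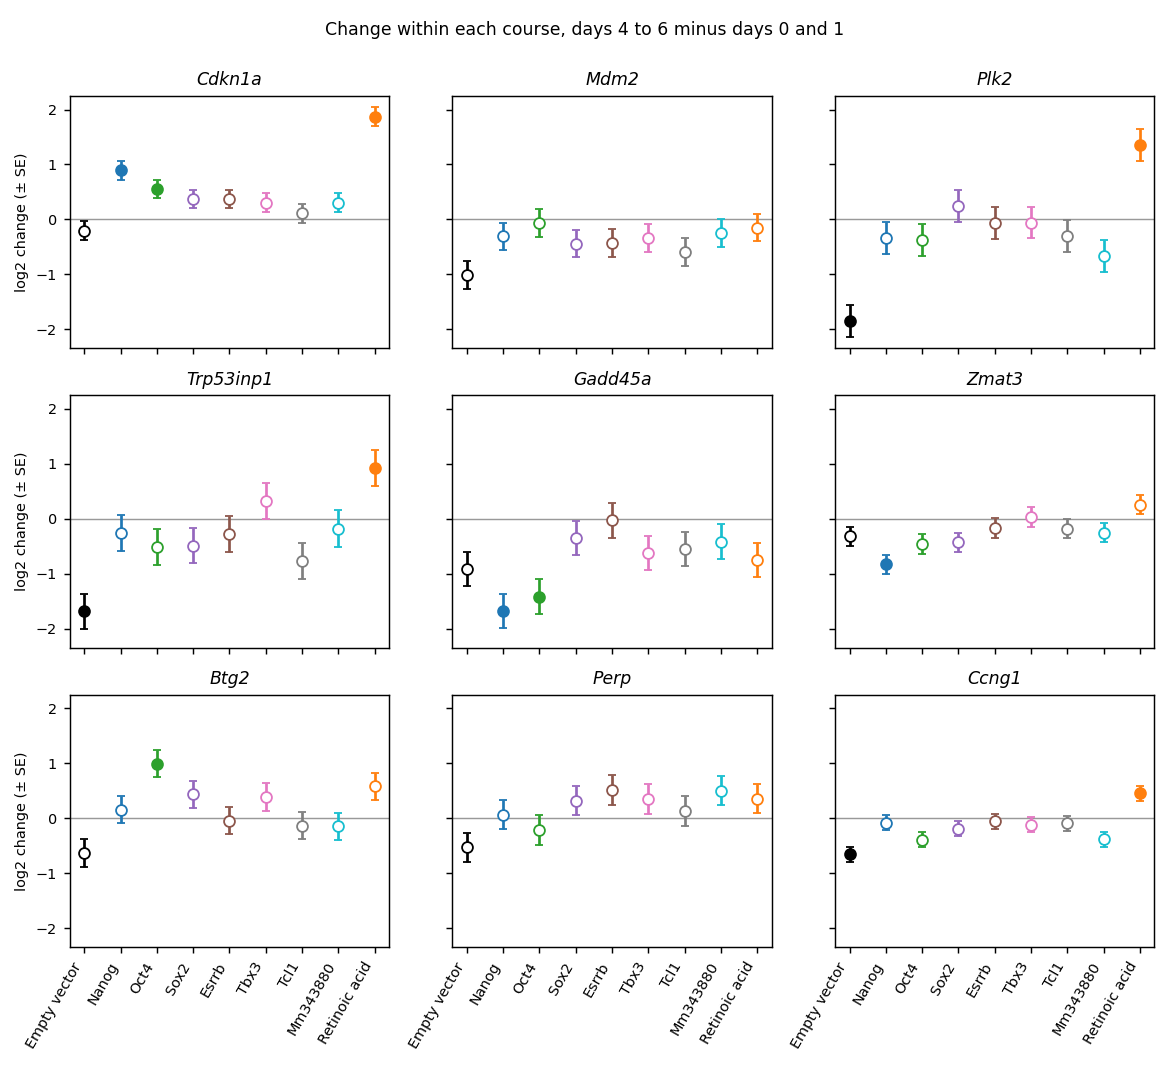
Change within each of the 9 courses, days 4 to 6 minus days 0 and 1 on the log2 scale, with its SE, for the probe set that stands for each gene. Filled points passed the test at an adjusted p below 0.05, and open points did not. Plk2 lies at −1.85 in the empty vector, between −0.67 and 0.25 in the knockdown courses and at 1.36 in retinoic acid.

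In retinoic acid 4 of the 9 genes rose (Cdkn1a, Plk2, Trp53inp1 and Ccng1) and 0 fell. The fitted change was above 0 for 7 genes and below 0 for 2, with a median change of 0.45 against 0.13 over all probe sets. By probe set 8 of 17 rose and 0 fell, where 15.1% of all probe sets were called higher and 10.4% lower. Cdkn1a climbed without a break, at 916, 1223, 2100, 2812, 3349, 4422 and 4653 on days 0 to 6, a change of 1.87 ± 0.17 (SE, adjusted p = 7.7e-12), and its second probe set rose by 1.59. That rise kept its call under every alternative run, between 1.31 and 2.15.

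Plk2 went from 1325 on day 0 to 5342 on day 3 and was 4098, 4358 and 3741 on days 4 to 6. Its change was 1.36 ± 0.29 (SE, adjusted p = 0.0003), which was 1.25 without the day 6 samples and 0.63 with days 1 and 2 as the early window, neither of which passed. Trp53inp1 rose at once, from 1665 on day 0 to 4232 on day 1 and 6045 on day 6, a change of 0.93 ± 0.33 (SE, adjusted p = 0.031). The step lay inside the early window, and the change without the day 0 samples was 0.14. Ccng1 rose from 3845 on day 0 to 6576 on day 1 and stayed between 6628 and 7335 (0.45 ± 0.14, SE, adjusted p = 0.011), and was 0.15 without the day 0 samples. Its 2 dimmer probe sets rose by 1.22 and 1.14. The medians of the retinoic acid A arrays ran from 265.35 to 382.9, the highest of all courses. With arrays shifted to the same median 2 genes passed, Cdkn1a at 1.64 and Plk2 at 1.13, while Trp53inp1 at 0.71 and Ccng1 at 0.23 did not.

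Over days 4 to 6, 33 of the 63 combinations of gene and knockdown course were higher than the empty vector, 2 were lower and the rest did not pass. Of the 33, 17 kept their call under every alternative run, and without the empty vector sample of day 6 the number that passed was 25. By course, 5 of 9 genes were higher and 1 lower in Nanog, 4 higher and 1 lower in Oct4, and 7 in Sox2, 4 in Esrrb, 4 in Tbx3, 3 in Tcl1 and 6 in Mm343880 were higher with none lower. Of all probe sets, 9.23% were called higher and 6.65% lower in Nanog, 4.66% and 6.91% in Oct4, 8.86% and 7.9% in Sox2, 5.41% and 3.26% in Esrrb, 4.73% and 3.49% in Tbx3, 3.59% and 2.97% in Tcl1, and 6.5% and 5.28% in Mm343880. The 7 comparisons share the same 8 empty vector samples and are not independent of one another. The median difference of the 9 genes ran from 0.51 in Esrrb to 0.89 in Mm343880, against medians between −0.10 and 0.06 over all probe sets.

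Plk2 was higher in all 7 courses. The empty vector samples of days 4 to 6 had 833, 649 and 404. The 21 knockdown samples of those days ran from 976 to 3474 with a median of 2054, so the groups did not overlap. How many of all probe sets separated in this way was not counted, for Plk2 or for the genes below. The reference samples are days of the same course, so such a separation describes these samples only. The differences were 0.95 in Oct4, 1.52 in Tcl1, 1.65 in Nanog, 1.68 in Tbx3, 1.78 in Esrrb, 1.79 in Mm343880 and 1.96 in Sox2 (SE 0.26 in each, adjusted p between 1.5e-07 and 0.0092), that is 1.94-fold to 3.90-fold. All 7 kept their call under every alternative run.

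By its standing probe set Cdkn1a was also higher in all 7 courses. Its late empty vector samples had 2530, 1521 and 1749, and 20 of the 21 knockdown samples lay above all 3 of them. The differences ran from 0.56 in Esrrb (adjusted p = 0.012) over 0.75 in Tbx3, 0.83 in Nanog, 0.84 in Tcl1, 1.04 in Oct4 and 1.08 in Mm343880 to 1.45 in Sox2 (adjusted p = 7.4e-10), with an SE of 0.15. In Esrrb the difference was 0.38 and did not pass without the day 5 sample of the empty vector. Without day 5 in every course it was 0.40 in Esrrb, 0.52 in Nanog, 0.61 in Tcl1 and 0.66 in Tbx3, and none of these passed. For the standing Cdkn1a probe set the calls in Sox2 and Oct4 were kept under every alternative. The second Cdkn1a probe set passed in Sox2, Esrrb, Tbx3, Tcl1 and Mm343880 but not in Nanog or Oct4. Its fitted late levels were 1513 in Nanog and 1375 in Oct4, beside 1131 in the empty vector. Ccng1 was higher in 6 courses, by 0.41 in Tbx3 to 0.82 in Mm343880, and by 0.34 in Oct4, which did not pass. All 21 knockdown samples, from 3559 to 6043, lay above the 3 empty vector samples, from 2702 to 3376. The 1420827_a_at probe set was higher in all 7, by 0.998 in Tcl1 to 2.003 in Mm343880.

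Btg2 was higher in 5 courses, by 0.63 in Nanog, 0.84 in Tbx3, 0.89 in Mm343880, 0.98 in Sox2 and 1.09 in Oct4. The Btg2 call in Oct4 was kept under every alternative, while that in Nanog was lost under 15 of the 29 alternatives and was 0.33 without the day 6 samples. Perp was higher in 3, by 1.11 in Sox2, 1.20 in Esrrb and 1.32 in Mm343880, and its signal was low, 191 to 475 in the late empty vector samples and 250 to 1334 in the knockdown samples. Trp53inp1 was higher in 3, by 0.85 in Sox2, 0.96 in Mm343880 and 0.996 in Oct4. The Trp53inp1 signal in Sox2 was 479, 1165 and 2407 on days 4 to 6. That difference was 0.42 without day 6 in every course and 0.69 without the day 6 sample of the empty vector alone, and neither passed. Mdm2 was higher in Nanog by 0.98 and in Sox2 by 0.77, and its second A array probe set in Nanog, Sox2 and Oct4 by 1.38, 1.29 and 1.15. The Mdm2 difference in Sox2 was 0.36 without the day 6 samples and did not pass. Gadd45a passed in no course, with differences between 0.00 and 0.51. Zmat3 was the exception in direction, lower in Nanog by −0.44 (adjusted p = 0.044) and in Oct4 by −0.49 (adjusted p = 0.028). In Nanog the Zmat3 difference was −0.35 without the empty vector sample of day 4 and −0.40 without that of day 5, and in Oct4 −0.40 and −0.46, none of which passed.

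**Figure D4:**
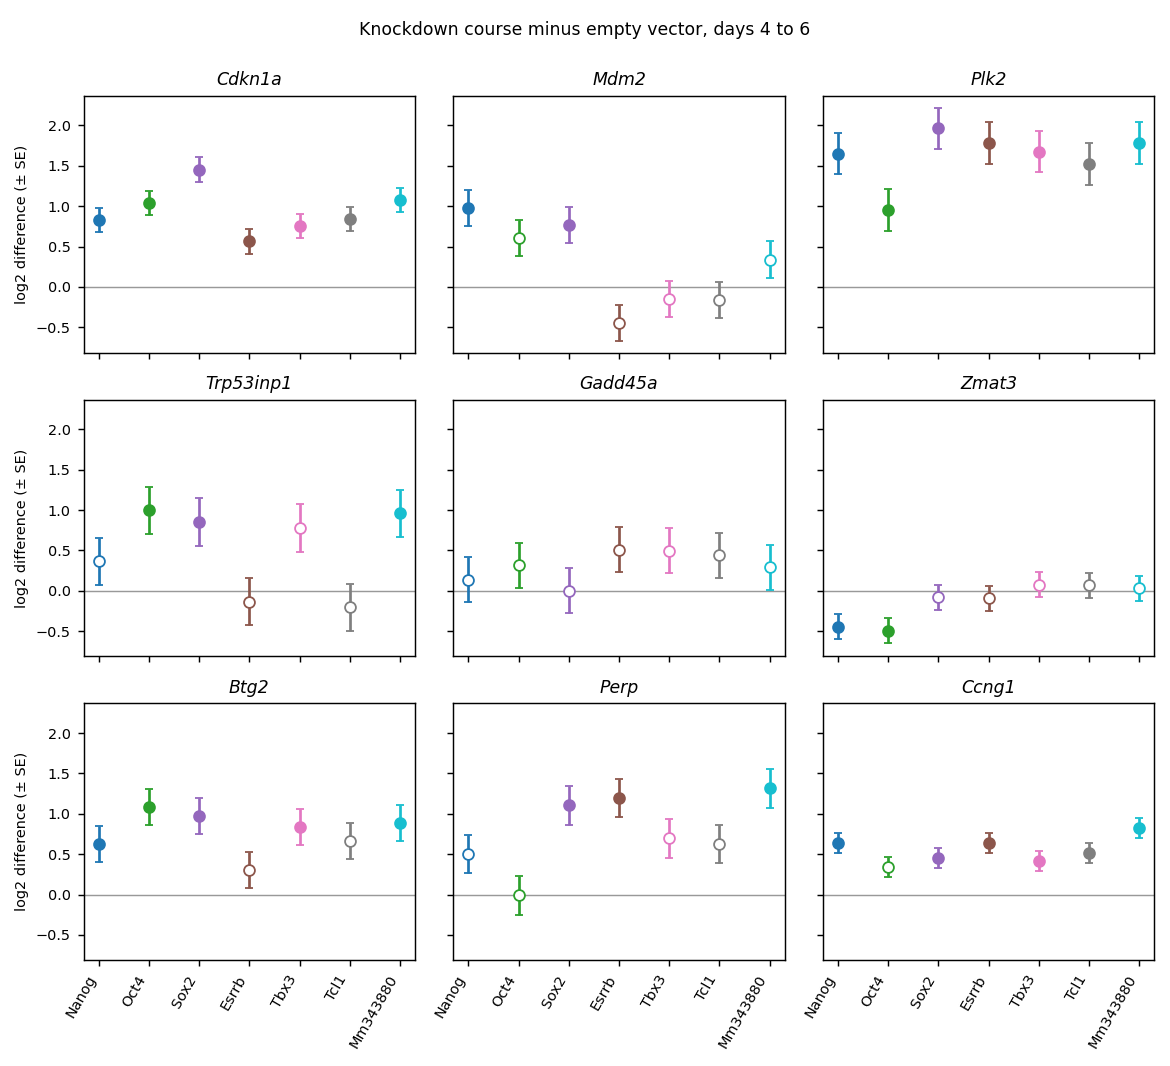
Difference of each knockdown course from the empty vector over days 4 to 6 on the log2 scale, with its SE, for the probe set that stands for each gene. Filled points passed the test at an adjusted p below 0.05. All 7 points of Plk2 (0.95 to 1.96) and of Cdkn1a (0.56 to 1.45) are filled and above 0.

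The late difference is by construction the early difference plus the change within the course minus the change within the empty vector, which separates what rose in a course from what fell in the reference. Of the 33 combinations that were higher late, 3 had risen within their own course (Cdkn1a in Nanog and Oct4, and Btg2 in Oct4), none had fallen by the test, and 18 had an own change below 0. For Plk2 the late difference of 1.96 in Sox2 was made of an early difference of −0.13, an own change of 0.25 and the empty vector's −1.85. In Nanog, 1.65 was made of 0.15, −0.34 and the same −1.85. The own change of Plk2 lay between −0.67 and 0.25 over the 7 courses and passed in none. For Ccng1 the own changes ran from −0.38 to −0.05 in the 6 courses in which it was higher late. For Trp53inp1 and Mdm2 the own changes were below 0 in every course in which they were higher late. For Cdkn1a the own changes were above 0 in all 7 courses, of which 2 passed, beside an empty vector change of −0.21. Among the combinations that were higher late, the own change was also above 0 for Perp in 3 of 3 and for Btg2 in 4 of 5. For Cdkn1a in Sox2 the late difference of 1.45 was made of an early difference of 0.88, an own change of 0.37 and the empty vector's −0.21.

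Early differences, over days 0 and 1, were counted in the same way. By probe set, 2 of 17 were higher in Sox2 and 1 each in Tbx3, Tcl1 and Mm343880, while 3 were lower in Esrrb and 1 in Tbx3. By gene, 1 combination of gene and course was higher and 3 were lower. These were Cdkn1a in Sox2 (0.88 ± 0.18, SE, adjusted p = 0.003), Trp53inp1 in Esrrb (−1.54, adjusted p = 0.018) and Tbx3 (−1.24, adjusted p = 0.049), and Mdm2 in Esrrb (−1.03, adjusted p = 0.042). The share of all probe sets that differed early, in either direction, was 2.03% in Sox2, 1.25% in Esrrb, 2.21% in Tbx3, 0.73% in Nanog, 2.19% in Oct4, 0.876% in Tcl1 and 0.5% in Mm343880. Cdkn1a in Sox2 had 3948 and 3952 on days 0 and 1, where the empty vector had 2216 and 2288, and the difference was 0.89 but did not pass without the day 0 sample of the empty vector. The second Cdkn1a probe set was higher early in Sox2, Tbx3, Tcl1 and Mm343880, by 0.77, 0.82, 1.20 and 1.01. Without the day 0 sample of the empty vector these were 0.34, 0.39, 0.77 and 0.57, and none passed. The Trp53inp1 differences were −0.97 in Esrrb and −0.66 in Tbx3 without that sample, and that of Mdm2 was −0.47, none of which passed.

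The change within a course was also tested directly against that within the empty vector. Of the 63 combinations 7 passed, all upward: Plk2 in Nanog, Sox2, Esrrb and Tbx3, Cdkn1a in Nanog, Btg2 in Oct4 and Trp53inp1 in Tbx3. The share of all probe sets that passed, in either direction, was 1.97% in Nanog, 0.703% in Oct4, 1.28% in Sox2, 0.894% in Esrrb, 0.376% in Tbx3, 0.0364% in Tcl1 and 1.02% in Mm343880. The Plk2 values were 1.50, 2.09, 1.79 and 1.79 (SE 0.41), that of Cdkn1a 1.10 ± 0.24, that of Btg2 1.62 ± 0.35 and that of Trp53inp1 2.01 ± 0.46 (SE). Without the day 0 sample of the empty vector none passed, at 1.86, 2.45, 2.14 and 2.15 for Plk2, 1.08 for Cdkn1a, 1.26 for Btg2 and 1.47 for Trp53inp1. Without the empty vector sample of day 6 the number that passed was 4.

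By level over days 4 to 6, retinoic acid led for Plk2 (4066 ± 310, SD over 3 days), Trp53inp1 (5112 ± 1093), Zmat3 (2669 ± 414) and Ccng1 (6764 ± 120), and for each of these its lowest day was above the highest day of the next course. For Cdkn1a the Sox2 course led (5240 ± 844), and each course overlapped its neighbour in order down to Esrrb (2809 ± 409). The empty vector was lowest (1933 ± 529), below every late day of Esrrb, while the lowest late day of Tbx3 (2380) lay inside its range. The empty vector was also the lowest by mean for Plk2 (629 ± 216), Ccng1 (3032 ± 337), Btg2 (1397 ± 388) and Gadd45a (295 ± 97.5). For Btg2 it overlapped the retinoic acid (1444 ± 131) and Esrrb (1657 ± 562) courses. For Gadd45a it overlapped retinoic acid (296 ± 68.2) and every knockdown course except Esrrb (479 ± 148). How many of all probe sets separated between courses was not counted. These SDs are over days of 1 course and not over repeats of it.

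The list of other reported p53 targets had 43 measured genes. Within the empty vector course 0 rose and 2 fell, against 0.285% and 0.185% of all probe sets. These were Ckap2 by −0.99 (a mitotic spindle protein, adjusted p = 0.012) and Pidd1 by −0.81 (a death domain protein, adjusted p = 0.048). Within the knockdown courses between 0 and 4 of the 43 rose and between 1 and 6 fell, where between 0.997% and 4.47% of all probe sets were called higher and between 0.379% and 2.98% lower. Sfn, the 14-3-3 sigma protein, rose by 3.10 in Nanog, 3.58 in Esrrb, 2.80 in Tbx3, 2.01 in Tcl1 and 2.18 in Mm343880, and Igfbp3, a binding protein of insulin-like growth factors, rose by 0.98 to 1.72 in the same 5 courses. Over days 4 to 6 between 6 and 12 of the 43 were higher than the empty vector in a knockdown course and between 1 and 7 lower. Of all probe sets between 3.59% and 9.23% were called higher there and between 2.97% and 7.9% lower. The median late difference of the 43 ran from 0.02 in Oct4 to 0.28 in Tbx3, beside 0.51 to 0.89 for the 9 genes. Both sets were chosen with earlier results of these data known. In retinoic acid 12 of the 43 rose and 7 fell, against 15.1% and 10.4% of all probe sets. Among those that rose were Igfbp3 at 3.37 and Sesn3, a sestrin of the stress response, at 1.58, and among those that fell Tigar, a regulator of glycolysis, at −3.16 and Sfn at −1.98.

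Of 24 genes that regulate p53 or are its relatives, none passed within the empty vector course, and between 0 and 3 rose and 0 and 2 fell within the knockdown courses, beside the same shares of all probe sets. In retinoic acid 6 rose, led by the kinase gene Hipk2 at 2.64 and Cdkn2a, the locus of the Mdm2 inhibitor p19Arf, at 2.10, and 5 fell, led by the checkpoint kinase gene Chek2 at −1.19, again against 15.1% and 10.4%. Over days 4 to 6 between 1 and 3 of the 24 were higher than the empty vector in a knockdown course and between 1 and 4 lower. Of all probe sets between 3.59% and 9.23% were called higher there and between 2.97% and 7.9% lower. The median difference of the 24 ran from −0.20 in Oct4 to 0.13 in Nanog. Cdkn2a was higher in all 7 knockdown courses, by 0.47 in Mm343880 to 1.38 in Tcl1. Trp53 itself was not analysed here. Of 15 relatives of the 9 genes, between 2 and 4 rose and between 0 and 2 fell within the knockdown courses. Of all probe sets between 0.997% and 4.47% were called higher within these courses and between 0.379% and 2.98% lower. In retinoic acid 7 of the 15 rose and 3 fell, against 15.1% and 10.4%. Cdkn1c, a sister of Cdkn1a among the kinase inhibitors, rose within all 7 knockdown courses, by 0.88 in Tbx3 to 4.55 in Nanog. Gadd45b rose in 5, by 1.18 in Tcl1 to 2.34 in Tbx3, and Plk3 fell in retinoic acid by 2.88 while Plk2 rose.

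Over the 70 samples the patterns of the 9 genes were not one. Log2 signals were closest between Plk2 and Ccng1 (r = 0.76), Plk2 and Perp (r = 0.73) and Mdm2 and Trp53inp1 (r = 0.68), and lowest between Cdkn1a and Gadd45a (r = −0.33). Cdkn1a and Mdm2, which both belong to the core of the pathway, had r = −0.08. Outside the 9 genes the closest patterns were those of Cd151, Itgb5 and Sparc to Cdkn1a (r = 0.75, 0.73 and 0.72), Rap2b, Commd3 and Gosr2 to Plk2 (r = 0.76, 0.74 and 0.71), Rfx7, Tmem184c and Ift74 to Trp53inp1 (r = 0.90 each), Tmtc3, Rnf111 and Syncrip to Mdm2 (r = 0.82, 0.82 and 0.81), and Commd3, Ercc5 and Zranb1 to Ccng1 (r = 0.76, 0.75 and 0.73). Those of Ddit4l, Zfp423 and Atf7ip were closest to Zmat3 (r = 0.79, 0.78 and 0.77), Itga3, Vcl and Gbp2b to Perp (r = 0.71, 0.70 and 0.68), Zcchc17, Tor1b and Npepl1 to Btg2 (r = 0.68, 0.63 and 0.62), and Arid5b, Tle4 and Rbm17 to Gadd45a (r = 0.64, 0.63 and 0.63). These are descriptions over samples that share courses and array medians.

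Markers of cell type moved in the same courses. Of 17 embryonic stem cell markers 0 rose and 0 fell within the empty vector course, while 10 fell in Nanog, 10 in Oct4, 4 in Sox2, 7 in Esrrb, 4 in Tbx3, 1 in Tcl1, 6 in Mm343880 and 16 in retinoic acid, and 1 each rose in Oct4, Tbx3 and Tcl1. The share of all probe sets called lower was 2.98% in Nanog, 2.75% in Oct4, 1.89% in Sox2, 0.997% in Esrrb, 0.552% in Tbx3, 0.379% in Tcl1, 2.61% in Mm343880 and 10.4% in retinoic acid. Of 13 trophectoderm markers 1 rose within the empty vector course, against 0.285% of all probe sets. In Nanog 12 rose, in Oct4 9, in Sox2 10, in Esrrb 12, in Tbx3 7, in Tcl1 5 and in Mm343880 7, where 1 fell. In retinoic acid 5 rose and 2 fell. The summed signal of the 13, in which the brightest weigh most, lay between 3991 and 8933 in the empty vector course. It reached 135854 in Nanog, 99870 in Oct4, 101489 in Sox2, 85543 in Esrrb, 41858 in Tbx3, 30722 in Tcl1 and 38814 in Mm343880. Of 11 extraembryonic endoderm markers 0 passed in the empty vector course, and 8 rose in Nanog and 8 in retinoic acid. In Sox2 and Esrrb 3 each rose, in Tbx3 and Mm343880 2 each, in Tcl1 1 and in Oct4 0. Of 9 fibroblast markers 0 passed in the empty vector course and 6 rose in retinoic acid. In Esrrb 3 rose, in Tbx3 2, and in Oct4 and Sox2 1 each. Of 8 interferon response genes 0 passed in the empty vector course, between 0 and 3 rose in a knockdown course and 3 fell in retinoic acid. Of 26 immediate-early and stress genes none passed in the empty vector course. Between 3 and 11 rose and between 0 and 3 fell within the knockdown courses, and 4 rose and 9 fell in retinoic acid. The share of all probe sets called higher was between 0.997% and 4.47% within the knockdown courses and 15.1% in retinoic acid. The part of all these marker genes in the values of the p53 targets was not tested.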

How the data were processed

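The deposited values were the MAS5 signal of each probe set, an intensity on a linear scale, of 140 Affymetrix arrays (A and B of the mouse 430 set). MAS5 was run by the authors, per the submitters' processing notes. Its version is not given here by the labels or the files. On each array the 2% trimmed mean of 100 shared normalization probe sets was 2500. The labels' course and day defined the groups.

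Signals entered as log2(signal + pseudocount), which understates the change of dim probe sets. The pseudocount was the 20th percentile of the deposited intensities, 63.1 for A and 21.8 for B. Probe sets had to exceed the table median (283.3 for A, 89.2 for B) on at least 3 of 70 arrays. A natural spline over days (3 degrees of freedom) was fitted to each course with limma 3.58.1 (lmFit, then eBayes with a trend) in R 4.3.3, A and B apart. Benjamini-Hochberg adjustment ran over 32992 probe sets, with a threshold of 0.05. The scripts were tested on simulated data with changes placed in the Nanog course. A log2 change of 1 was recovered in 30% of cases within the course and in 39% as a late difference. As a change beyond that of the empty vector it was recovered in 7%. For a log2 change of 2 these shares were 82%, 93% and 51%. A value that did not pass therefore does not show that a gene did not change.

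The target genes and lists were chosen with earlier results of these data known. All probe sets naming 1 target gene are reported. From each list up to 4 members that passed a comparison with the largest changes could be named, and for each target the 3 other genes most like it over the 70 samples. Retinoic acid was not set against the empty vector. Precision is limited by the number of arrays. Alternatives were other pseudocounts, no filter, quantile normalization, arrays shifted to the same median, 1 probe set per gene, a stiffer spline or none, fits restricted to the compared courses, no eBayes trend, other windows, and leaving out each day.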

Additional observations from a re-analysis of the deposited data

Results flagged for a closer look

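Target probe sets had, in 10 cases, a change within a knockdown course that differed from the change within the empty vector course by the test of that difference (limma, adjusted p below 0.05). For Plk2 the excess was 1.50 in Nanog, 2.09 in Sox2, 1.79 in Esrrb and 1.79 in Tbx3 on the log2 scale. For the Ccng1 probe set 1420827_a_at it was 1.98 in Nanog, 1.82 in Sox2 and 1.82 in Esrrb, while the brightest Ccng1 probe set passed in no course. For Cdkn1a it was 1.10 in Nanog, for Btg2 1.62 in Oct4 and for Trp53inp1 2.01 in Tbx3. Without the day 0 sample of the empty vector none of the 10 passed. No groups had more than 1 sample, so outlying samples within a group could not be looked for.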

How the results depend on the processing

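Of 99 target values that passed a test, 28 kept their call under every alternative that gave them a value (29, or 28 for probe sets that do not stand for a gene), among them the Plk2 differences from the empty vector in all 7 knockdown courses. The sign changed in 2 cases, both for the Cdkn1a probe set 1421679_a_at within the Oct4 course, where 0.64 became −0.0095 with days 1 and 2 as the early window, a window chosen after seeing the data, and −0.19 without day 0 in every course. Over all days left out it ran from −0.19 to 0.91.

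Counts by gene changed as follows, with 3 falls within the empty vector course, 3 rises within the knockdown courses, 4 rises in retinoic acid, 2 late values below the empty vector, 1 early value above and 3 below it, and 7 changes above that of the empty vector as reported. Without a spline these were 1, 1, 2, 0, 0, 0 and 1. With days 1 and 2 as the early window there were 1 fall within the empty vector, 1 rise within the knockdown courses, 1 rise in retinoic acid, 6 early values above and 1 change above the empty vector. With arrays shifted to the same median there were 2 rises in retinoic acid, 2 early values above, 1 below and 2 changes above. Without the filter, and also with eBayes without trend, there were 1 late value below, 1 early value below and 4 changes above. Quantile normalization gave 1 early value below and 4 changes above. A spline of 2 degrees of freedom gave 1 late value below and 0 early values below. A fit of only the courses compared gave 1 late and 1 early value below. Day 0 alone as the early window gave 0 early values above, 0 below and 3 changes above, and days 5 and 6 as the late window gave 1 late value below.

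Leaving out 1 day, of every course or of the empty vector alone, gave 0 to 4 falls within the empty vector, 0 to 3 rises and 0 to 5 falls within the knockdown courses, 1 to 5 rises in retinoic acid, 22 to 38 late values above (33 as reported) and 0 to 3 below, 0 to 2 early values above and 0 to 3 below, and 0 to 12 changes above. The lowest counts of falls within the empty vector and of changes above it came without day 0. No paired analysis was possible because the labels give no replicate numbers. Samples of the same day were not treated as pairs, and day entered each fit as its time axis.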
